A study of Arabidopsis with 27 samples.

Results

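Systemic rosette leaves of Arabidopsis thaliana labelled glr3.3glr3.6, a double mutant named for a pair of glutamate receptor-like channels, were compared with those of wild-type Col-0 after a local leaf of the same rosette had received extracellular ATP (eATP). The comparison rests on 6 of the 27 libraries in the series, which were chosen by genotype and treatment alone: glr3.3glr3.6 eATP 1, 2 and 3 and Col-0 eATP 1, 2 and 3. The agent is called extracellular ATP in the sample titles and is given in the treatment label as the analogue βγmeATP at 300 µM, and it is written eATP here. In both groups the plants were 4 weeks old, the untreated systemic leaf was frozen 30 min after the application, and each library came from a pool of 8 plants. Further libraries of the same genotypes after a buffer (mock) or 100 mM L-glutamate (L-Glu), and of the double mutant p2k1p2k2, enter as separate groups of 3. The group means compared come from the 6 libraries, but the spread behind every p-value was estimated over all 27 libraries in 9 groups. The labels give neither the alleles behind the line names nor the number of independent lines, so each genotype stands for 1 line as labelled, and the pools may share growth conditions, so that p-values measure the spread between pools and not between plants.

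Glutamate receptor-like (GLR) proteins are plant cation channels of the plasma and internal membranes, and GLR3.3 and GLR3.6 are known in Arabidopsis for carrying wound-induced electrical and calcium signals from a damaged leaf to distant leaves. Extracellular ATP is a damage signal that is perceived at the cell surface by the lectin receptor kinase P2K1, also known as DORN1. Calcium, reactive oxygen species, jasmonate, salicylate and ethylene are the usual downstream signals of both systems.

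Values are FPKM, the fragments assigned to a gene scaled to its length and to the library total. The read depth is unknown, so no counting error could be given. Summed FPKM ran from 740955 to 822758 over the 27 libraries, and replicates of a group correlated at 0.939 to 0.974 across genes. The library Col-0 eATP 3 had the largest sum of all, and its score on the second principal component was -35.8, against 2.61 and 7.27 for Col-0 eATP 1 and 2. The first component, with 24.4% of the variance, placed libraries of number 1 apart (-41.4 and -36.5 among the 6 compared), and the labels do not say what a number shares. Differences are therefore given on the log2(FPKM + 1) scale from a limma model with the number as a block, as glr3.3glr3.6 minus Col-0, with their SE, and list medians are also given by number. Leaf identity was clear: the 18 genes of photosynthesis summed to between 69793 and 82612 FPKM, while the root markers RHD6 and NRT2.1, the meristem marker STM, the flower marker AP1 and the senescence marker SAG12 were listed at 0 in all 6 libraries. Not all markers of other tissues were at 0: SCR, also a gene of the leaf's bundle sheath, stood at 4.08, 5.43 and 4.9 FPKM in glr3.3glr3.6 eATP against 3.33, 3.28 and 3.2 in Col-0 eATP, without overlap (0.44, limma, adjusted p = 0.069). CDKB2;1, a cell division kinase, stood at 0.942, 2.44 and 1.37 FPKM against 0.81, 1.43 and 0.777 (0.34, limma, unadjusted p = 0.0498, adjusted p = 0.272), with overlapping groups.

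Both channel genes were higher in the line named for them, GLR3.6 with the largest difference of all genes called and GLR3.3 with a smaller one. GLR3.6 (AT3G51480) stood at 88.1, 70.5 and 122 FPKM in the libraries labelled glr3.3glr3.6 eATP 1, 2 and 3, and at 1.02, 0.851 and 0.925 in Col-0 eATP. The groups were far apart, and the difference was 5.58 ± 0.16 (SE, limma, adjusted p = 5.64e-15). GLR3.3 (AT1G42540) stood at 7.26, 6.25 and 7.2 FPKM against 3.6, 4 and 3.19, again without overlap (0.78 ± 0.11, limma, adjusted p = 0.0021). A single FPKM for a gene does not tell which stretch of its RNA gave the reads, so it was not tested whether either product is made, and the genotype is written throughout as the label of the libraries.

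The genes beside the channels were followed on each side in the order of the reference gene table. TMT3 (AT3G51490), the next gene after GLR3.6, whose product carries sugars into the vacuole, stood at 34.8, 18.8 and 41.9 FPKM against 0.136, 0.0416 and 0.126 (4.82 ± 0.23, limma, adjusted p = 3.47e-11). PMI1 (AT1G42550), which is needed for chloroplast movement and lies next to GLR3.3, stood at 49.1, 63.7 and 69.1 FPKM against 25.5, 22.2 and 27.6 (1.23 ± 0.12, limma, adjusted p = 6.64e-06). Neither pair of groups overlapped. PMI1 and GLR3.3 overlap in the reference table, which gives no strand, so reads of this pair may be divided between them. Of the other neighbours, AT3G51470 (0.16, limma, adjusted p = 0.632) and AT3G51500 (-0.44, limma, adjusted p = 0.124) did not pass, AT1G42525 was listed at 0 and MLO9 (AT1G42560) did not exceed 0.0852 FPKM. AT3G51478 and AT1G42530, the genes directly before GLR3.6 and GLR3.3, had no FPKM values, so the nearest gene on that side was not measured.

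Genes away from the channel loci were called as well, with smaller differences than GLR3.6 and TMT3. MRD1 (AT1G53480), named for its response in a methionine-overaccumulating mutant, stood at 16.1, 15.8 and 13.6 FPKM against 2.07e-05, 1.5 and 0.194 (3.48 ± 0.26, limma, adjusted p = 1.14e-07). AT1G07887, a long non-coding RNA that overlaps MRD1, stood at 10.4, 17.2 and 18.7 FPKM against 0.18, 2.72 and a value near 0 (3.29 ± 0.38, limma, adjusted p = 8.66e-05), and the reads of this pair cannot be told apart here. AT1G75945 stood at 14.1, 18.3 and 20.1 FPKM against 2.87, 0 and 0.402 (3.38 ± 0.37, limma, adjusted p = 6.12e-05). In the other direction SRC2 (AT1G09070), a C2-domain protein named after a cold-regulated soybean gene, stood at 474, 350 and 382 FPKM against 875, 642 and 654 (-0.84 ± 0.10, limma, adjusted p = 8.66e-05). None of these groups overlapped.

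**Figure D1:**
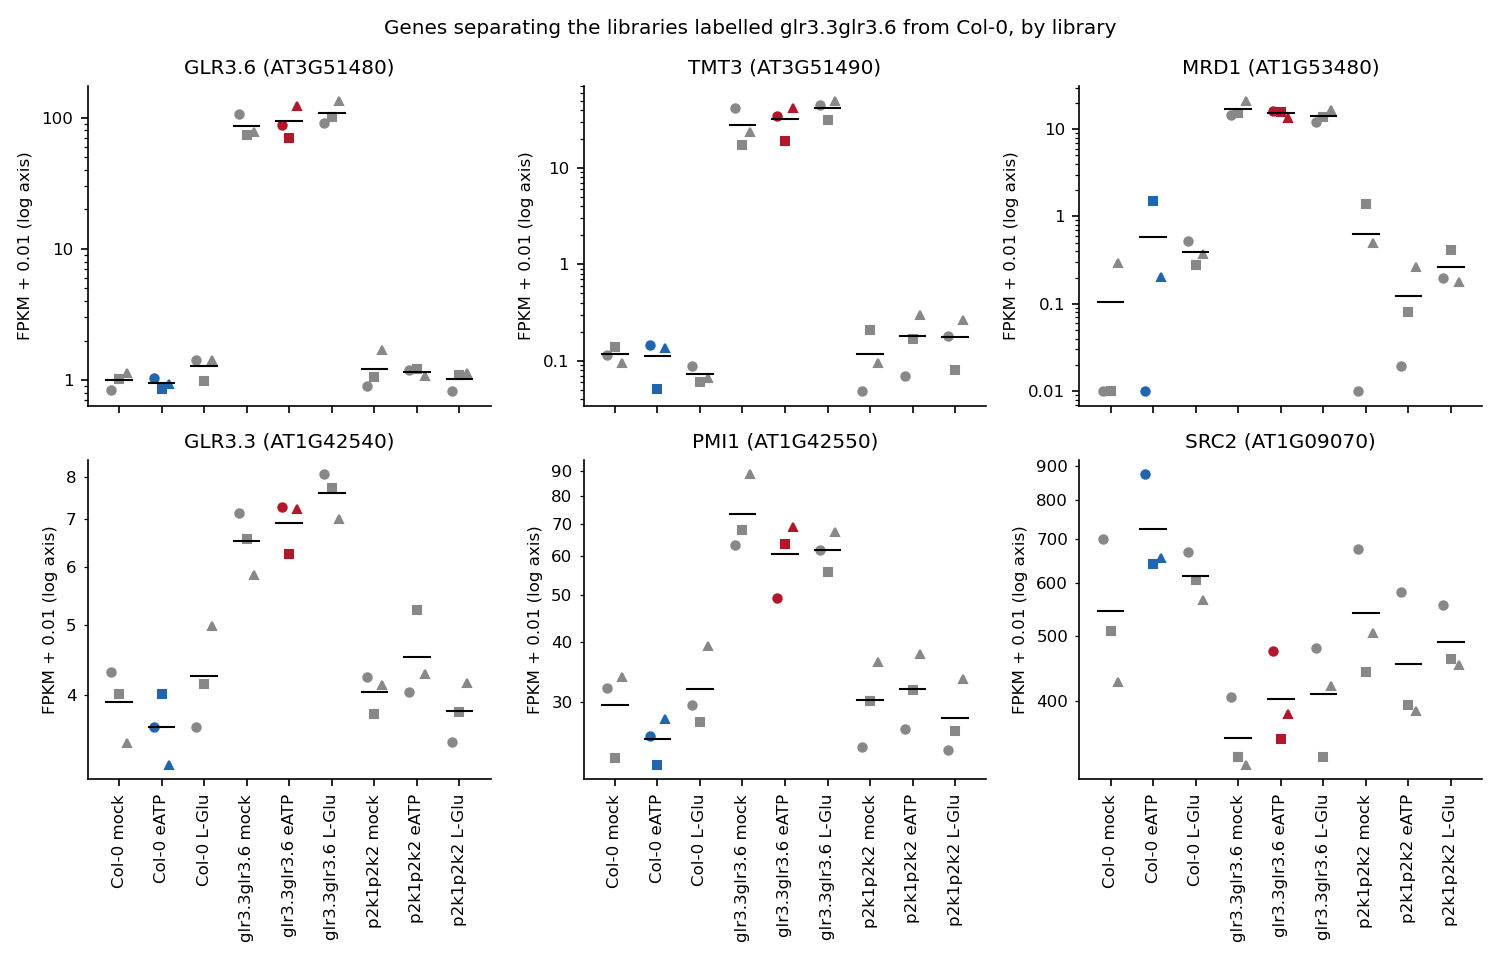
FPKM (log axis, with 0.01 added) of 6 genes in each of the 27 libraries, by genotype and treatment; circles, squares and triangles are replicate numbers 1, 2 and 3, black bars are means, red is glr3.3glr3.6 eATP and blue is Col-0 eATP. GLR3.6, TMT3, MRD1, GLR3.3 and PMI1 stand higher in all 3 treatments of the line labelled glr3.3glr3.6 than in Col-0. The mean of SRC2 is lower in all 3 treatments (after eATP 350 to 474 against 642 to 875 FPKM).

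The same levels were found in libraries that the eATP comparison did not use. GLR3.6 averaged 85.6 ± 17.7 FPKM (SD, n = 3) in glr3.3glr3.6 mock and 109 ± 23.3 after L-Glu, against 0.987 ± 0.149 and 1.26 ± 0.253 in Col-0. SRC2 averaged 352 ± 46.7 FPKM in glr3.3glr3.6 mock against 545 ± 140 in Col-0 mock. A total of 10 genes was called in the mock, L-Glu and eATP comparisons alike: GLR3.6, GLR3.3, TMT3, PMI1, MRD1, AT1G07887, AT1G75945, AT5G46295, SRC2 and AT3G56210. AT5G46295 was higher by 2.04 ± 0.33 after eATP (52.5, 28.4 and 30 against 19.1, 6.67 and 3.54 FPKM, limma, adjusted p = 0.00493), and AT3G56210 lower (9.12, 7.6 and 8.53 against 13.3, 14.1 and 15.2 FPKM, -0.69 ± 0.11, limma, adjusted p = 0.00528), both without overlap. These 10 are 7.41% of the genes called after eATP, 10 of the 12 called under mock and 10 of the 14 called after L-Glu.

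Across all genes, 135 of the 16577 tested differed after eATP (limma, adjusted p under 0.05; 0.814%). Of these, 90 were higher (0.543%) and 45 lower (0.271%) in glr3.3glr3.6, with medians of 0.64 and -0.47, and 3038 genes had an unadjusted p under 0.05. Only 17 of the higher and 4 of the lower genes passed 2-fold. The sign was the same in all 3 numbers for 134 of the 135, and the 3 against 3 values did not overlap for 91 (61 higher, 30 lower), beside 8.64% of all genes tested (6.02% higher, 2.62% lower). The 135 were picked by p on these same values, so both counts follow largely from the selection and lend the calls no support. For the sign no share over all genes was taken. The median over all genes was 0.06, with 5% of genes below -0.33 and 5% above 0.45, and a gene's median SE was 0.13.

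This count moved with the libraries and with the scaling. It was 14 without glr3.3glr3.6 eATP 2, 46 without Col-0 eATP 3, 83 without glr3.3glr3.6 eATP 3 and 395 without Col-0 eATP 1, and 8 with no block on the number. With the spread estimated from only the 6 libraries compared, it was 1 with the block and 3 without. The split of 90 higher and 45 lower became 60 and 154 after median-of-ratios scaling, 36 and 56 after quantile normalization and 52 and 57 with library weights, so the excess of higher genes was not kept under these 3 settings. All 135 genes kept their sign under both scalings, which lends the calls no support. The smallest called difference was 0.29, and the scalings moved the median over all genes only from 0.062 to -0.001 and 0. Of the 135, 70 (34 higher, 36 lower) kept their call under both scalings. Whichever of the 6 libraries was left out, 13 kept their call, and 8 lost it in every such refit. The 13 were GLR3.6, GLR3.3, TMT3, PMI1, MRD1, AT1G07887, AT1G75945, AT5G46295, SRC2, AT4G18253, AT5G53830 and, outside the rule for named genes and picked out for this reason, SLP2 (0.59) and AT3G07790 (-0.39). With no block, the 8 called genes were GLR3.6, GLR3.3, TMT3, PMI1, MRD1, AT1G07887, AT1G75945 and AT3G56210. The rest of the 13 lost their call there, with an adjusted p from 0.0803 (AT5G53830) to 0.763 (SLP2) by limma, and 0.224 for SRC2. So did EDS1 (0.193), ACS7 (0.355) and PYL5 (0.494, all adjusted p by limma).

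**Figure D2:**
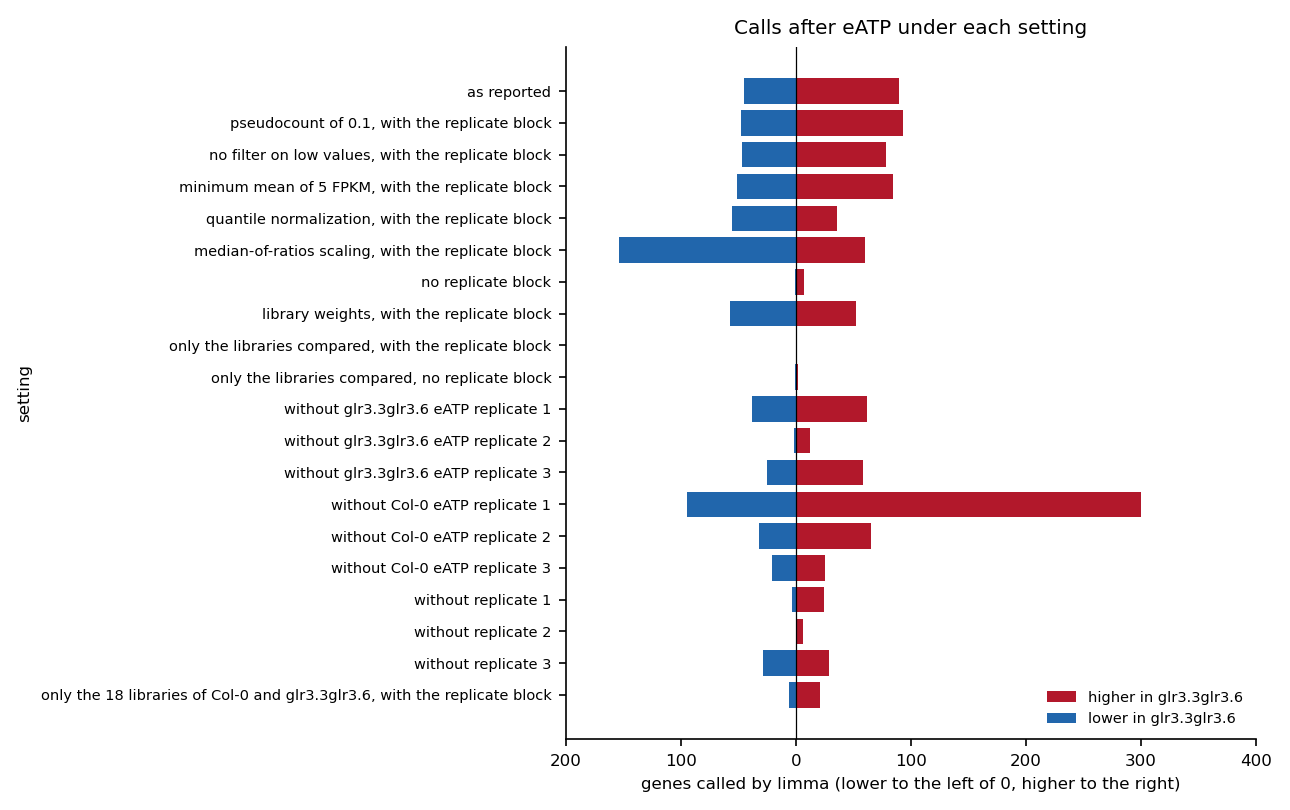
Number of genes called by limma in glr3.3glr3.6 eATP against Col-0 eATP under each setting, with higher genes to the right of 0 and lower genes to the left. The reported fit gives 90 and 45; the count runs from 1, with only the 6 libraries and the block, to 395 without Col-0 eATP 1, and the balance of higher and lower genes turns under median-of-ratios scaling (60 and 154).

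Beyond the genes that marked the line in every treatment, the highest called genes with non-overlapping groups held signalling genes and genes of no assigned role. AT5G53830, listed in the reference as MVQ3, a VQ-motif protein that is a target of the immune kinases MPK3 and MPK6, stood at 5.58, 7.76 and 7.46 FPKM against 2.18, 2.95 and 2.44 (1.17 ± 0.16, limma, adjusted p = 0.000773). Its mean was 6.93 ± 1.18 FPKM in glr3.3glr3.6 eATP and 4.96 ± 0.663 in glr3.3glr3.6 mock (SD, n = 3), and 2.52 ± 0.389 in Col-0 eATP and 4.31 ± 1.05 in Col-0 mock. ACS7 (AT4G26200), which makes the ethylene precursor ACC, stood at 3.35, 5.31 and 2.58 FPKM against 0.942, 0.907 and 1.02 (1.24 ± 0.21, limma, adjusted p = 0.00867). This call was kept in 5 of the 6 refits and lost without glr3.3glr3.6 eATP 2.

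AT3G16670 showed the largest difference of these: 24.9, 9.13 and 9.8 FPKM against 0.49, 1.32 and 0.295 (3.1 ± 0.62, limma, adjusted p = 0.0246). Its level varied widely elsewhere, with 3.95 ± 3.39 FPKM in Col-0 mock and 3.03 ± 2.81 in glr3.3glr3.6 mock, and its call was kept in 1 of the 6 refits. The neighbouring identifiers AT4G18253 (135, 87.7 and 65.9 against 57.6, 37.3 and 34.6 FPKM, 1.11 ± 0.18, limma, adjusted p = 0.00493) and AT4G18250 (1.13 ± 0.25, limma, adjusted p = 0.038) were both higher, the first in all 6 refits and the second in 2. The long non-coding RNAs AT3G22121 (1.71) and AT3G29644 (1.33) and the gene AT5G56960 (0.97) completed the group, each kept in 3 or fewer refits. AT3G22121 overlaps the protein-coding gene CWLP and fell from 1.71 to 0.98 without Col-0 eATP 3, in which it stood at 69.9 FPKM, against 311 and 218 in Col-0 eATP 1 and 2. The higher genes called with overlapping groups included MIR830 (2.57, kept in 2 of the 6 refits) and AT3G28580 (1.34, kept in 1).

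Called lower genes are ranked here among the 30 of 45 with non-overlapping groups. The lower genes called with overlapping groups included AT5G51440 (-1.42), AT1G26800 (-0.89) and RABA6b (-0.76). PYL5 (AT5G05440), a receptor of the hormone abscisate, stood at 121, 96.9 and 106 FPKM against 179, 144 and 146 (-0.53 ± 0.08, limma, adjusted p = 0.00493), kept in 5 of 6 refits. WRKY22 (AT4G01250), a transcription factor of pattern-triggered immunity, stood at 79, 54.2 and 80.1 FPKM against 113, 84.9 and 94.4 (-0.46 ± 0.09, limma, adjusted p = 0.0269), kept in 2. NUDT12 (AT1G12880), a Nudix hydrolase, stood at 6.08, 4.83 and 5.48 FPKM against 8.89, 8.24 and 9.08 (-0.59 ± 0.10, limma, adjusted p = 0.00974), kept in 4. In each of the 3 genes every Col-0 value lay above every glr3.3glr3.6 value.

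The other lower genes with non-overlapping groups named here ran from -1.14 to -0.56. They were AT5G10695 (-1.14), AT5G51390 (-1.09), AT3G20340 (-1.01), AT2G30230 (-0.78), AT4G27350 (-0.75), the myo-inositol oxygenase MIOX1 (-0.68), the transcription factor RAP2.10 of the DREB family (-0.64), AT4G16745 (-0.63), AT2G23120 (-0.59) and AT1G06830 (-0.56). AT5G10695 was kept in 4 of the 6 refits and the others in 2 or fewer. Of the 135 called genes, 33 overlap another gene in the reference, AT5G10695, AT5G51390, AT4G16745, AT2G23120 and AT5G56960 among them, and the counting is not stated to have used strand.

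Genes of salicylate synthesis and response stood higher as a list than any other list with 5 or more tested members, although only 1 of them passed the test. Of 15 members 13 were tested, 12 of these 13 were positive (10346 of 16577 over all genes), and their median was 0.71, beside 0.06 for all genes. EDS1 (AT3G48090), the lipase-like hub of immune signalling upstream of salicylate, stood at 78.3, 58.5 and 42.2 FPKM against 39.1, 27 and 30.5 (0.84 ± 0.16, limma, adjusted p = 0.0189). The groups did not overlap, and the call was kept in 3 of the 6 refits. In these bulk leaves a change in the share of a cell type cannot be told apart from a change in RNA per cell.

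The members that did not pass lay mostly on the same side. EDS5, the exporter of salicylate from plastids, stood at 23.2, 17.6 and 11.1 FPKM against 9.41, 10.9 and 6.34 (0.86, limma, adjusted p = 0.0563). SARD1 (0.90, limma, adjusted p = 0.0614) and CBP60G (0.50, limma, adjusted p = 0.0694) are transcription factors that activate the synthesis genes. ICS1, the main salicylate synthesis enzyme, stood at 58.2, 32.7 and 13 FPKM against 17, 14.6 and 9.94 (1.06 ± 0.42, limma, adjusted p = 0.185), so that every pair of a number had its higher value in glr3.3glr3.6 while the groups overlapped. PR1, the classical output, stood at 140, 54.3 and 0.245 FPKM against 34.4, 9.21 and 0.199 (1.49 ± 1.17, limma, adjusted p = 0.516), and lay lowest in number 3 in both genotypes. The exception to the direction was SAG101 at -0.08, and ALD1 and FMO1 were under the filter on low values.

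The size of the salicylate difference varied between numbers. By number 1, 2 and 3 the list median was 0.86, 1.00 and 0.45, and the summed FPKM of the list was 1614, 883 and 454 in glr3.3glr3.6 against 925, 485 and 344 in Col-0, in the order of the numbers. Without Col-0 eATP 3 the median was 0.63, and after quantile normalization and median-of-ratios scaling it was 0.66 and 0.64. In libraries that the eATP comparison did not use, the median of the same list was 0.05 under mock and -0.19 after L-Glu. EDS1 averaged 39.9 ± 1.49 FPKM in glr3.3glr3.6 mock and 34.2 ± 3.36 in Col-0 mock, against 59.7 ± 18.1 and 32.2 ± 6.22 after eATP (SD, n = 3). The difference between the eATP and mock differences of EDS1 was 0.62 ± 0.23 (limma, unadjusted p = 0.0122, adjusted p = 0.805), so it was not shown to differ between treatments.

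**Figure D3:**
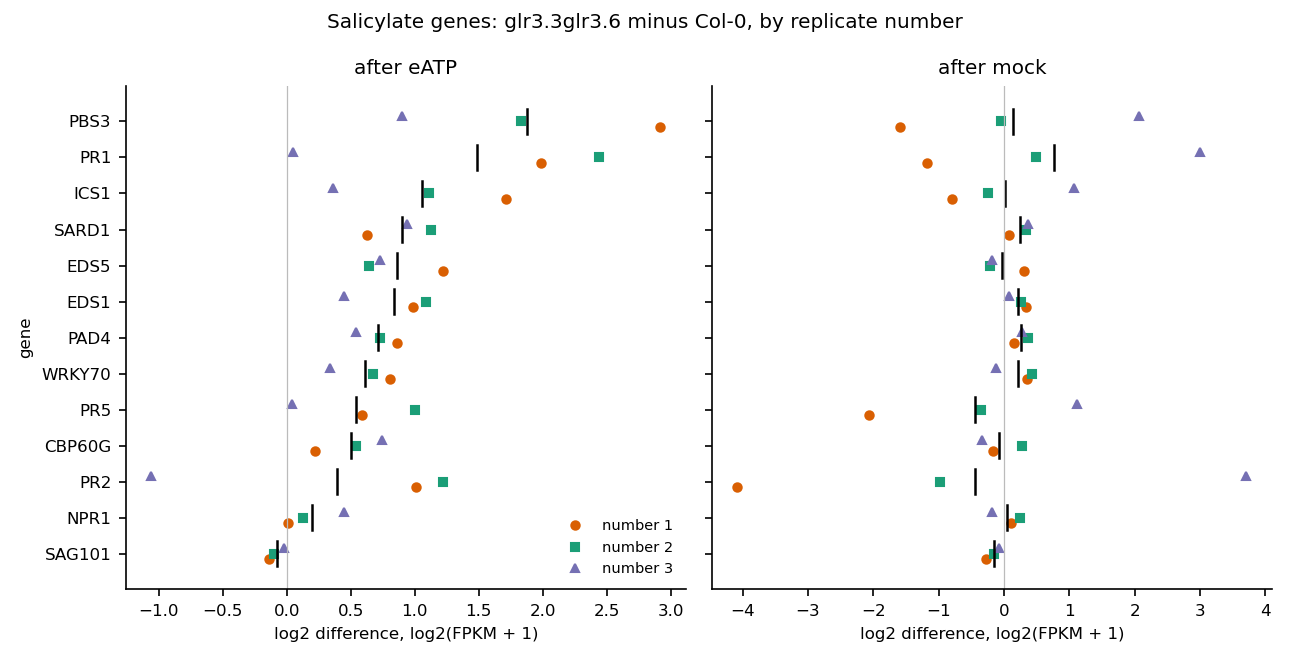
Difference between glr3.3glr3.6 and Col-0, log2(FPKM + 1), of the 13 tested salicylate genes within replicate numbers 1, 2 and 3 (circles, squares and triangles) after eATP on the left and after mock on the right; black bars are the estimates over the 3 numbers and the horizontal scales of the panels differ. After eATP 12 of 13 estimates are above 0 and PR1 ranges from 0.05 to 2.44 between numbers, while after mock the median is 0.05 and the numbers scatter to both sides.

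Early immune genes showed a smaller shift. Of 20 members 19 were tested, 15 were positive and the median was 0.24 (0.19, 0.11 and 0.34 by number, 0.17 without Col-0 eATP 3, 0.14 after quantile normalization). Only WRKY22 passed, and it was lower. The kinase MPK3 stood at 633, 428 and 382 FPKM against 474, 283 and 255 (0.53 ± 0.13, limma, adjusted p = 0.059). CYP81F2, an enzyme of indole glucosinolate modification, stood at 0.55 (limma, adjusted p = 0.092) and PROPEP3, the precursor of a danger peptide, at 2.81, 4.54 and 3.66 FPKM against 1.66, 0.539 and 1.59 (1.07, limma, adjusted p = 0.106).

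Abscisate, drought and cold genes had the lowest median of the lists with 5 or more tested members. Of 22 members 18 were tested, 13 were negative and none passed (limma; 16577 genes tested), with a median of -0.30 (-0.27, -0.55 and -0.19 by number, -0.34 without Col-0 eATP 3). COR47, a dehydrin, stood at 409, 564 and 738 FPKM against 693, 811 and 1107 (-0.62 ± 0.15, limma, adjusted p = 0.0576). KIN1, another cold-induced protective protein, stood at 8.71, 13.1 and 23.4 FPKM against 16.1, 33.7 and 50.2 (-1.06 ± 0.27, limma, adjusted p = 0.0614). ERD10, also a dehydrin, stood at 258, 314 and 326 FPKM against 374, 480 and 513 (-0.60, limma, adjusted p = 0.0715), and the kinase OST1 at -0.37 (limma, adjusted p = 0.0611). Of these ERD10 had groups that did not overlap, and in all 4 each number had its lower value in glr3.3glr3.6. ERD10 stood at -0.59 under mock and -0.52 after L-Glu as well, while the list median was -0.10 under mock and -0.07 after L-Glu. An unadjusted p under 0.05 was found for 9 of the 18 tested members, beside 9 of 13 in the salicylate list, 11 of 19 in the early immune list and 3038 of 16577 over all genes. Such values were not particular to these lists. They were found for 5 of 9 growth, auxin and cell wall genes and 5 of 11 heat shock genes. The counts were 6 of 18 for reactive oxygen, 4 of 12 for ethylene and 5 of 19 for calcium and touch.

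Heat shock genes were also mostly negative, but unevenly. Of 15 members 11 were tested, 9 were negative and none passed (limma; 5 had an unadjusted p under 0.05), and the median was -0.29. By number it was -0.12, -0.26 and -1.06, and without Col-0 eATP 3, the library that stood apart, it was -0.13. The chaperone gene HSP70 (AT3G12580) stood at 8.42, 2.45 and 11.8 FPKM against 11.4, 9.53 and 35.1 (-1.17 ± 0.32, limma, adjusted p = 0.0732), and HSFA2, a heat shock transcription factor, at 12.4, 0.849 and 7.59 against 15.6, 8.81 and 16.9 (-1.26 ± 0.46, limma, adjusted p = 0.158). The groups overlapped in both. The list median was -0.28 under mock and -0.24 after L-Glu, where the library Col-0 eATP 3 takes no part.

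**Figure D4:**
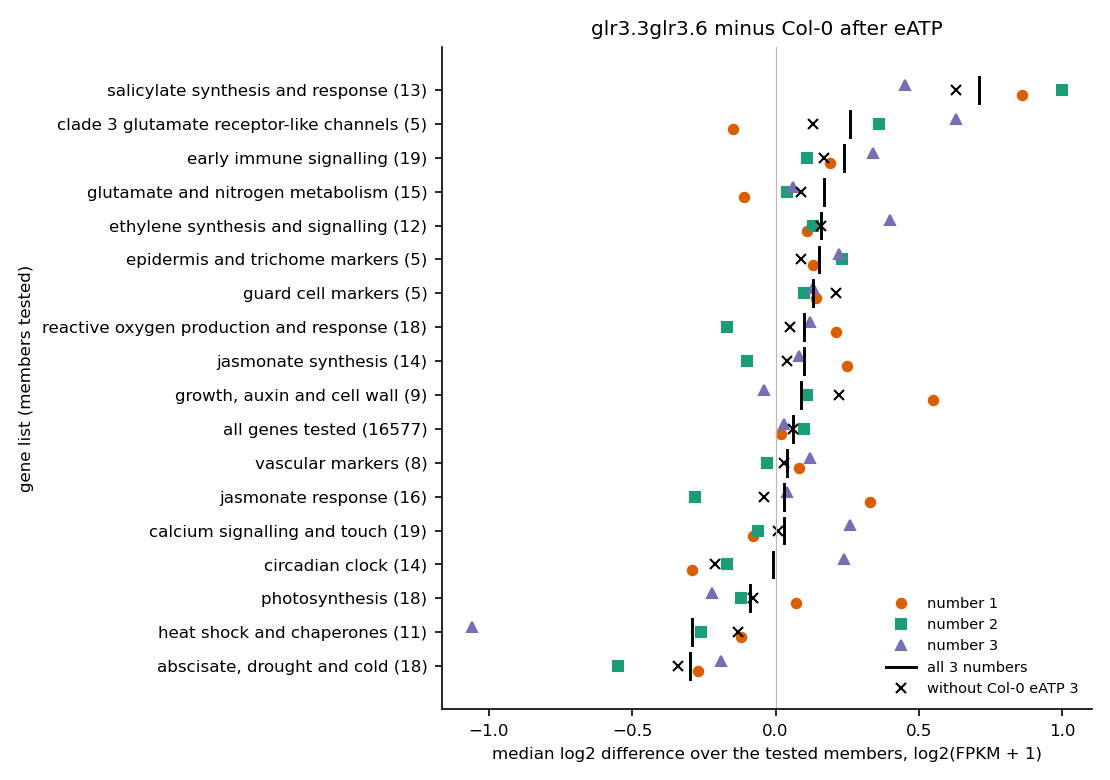
Median difference between glr3.3glr3.6 and Col-0 after eATP, log2(FPKM + 1), over the tested members of each list with 5 or more of them and over all genes; circles, squares and triangles are numbers 1, 2 and 3, bars are the medians of the estimates over all numbers, and crosses are those without Col-0 eATP 3. The salicylate list lies highest (0.71) and the abscisate and heat shock lists lowest (-0.30 and -0.29), and number 3 of the heat shock list reaches -1.06.

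Lists for calcium, reactive oxygen, ethylene and jasmonate each held at most 1 called gene, where 0.814% of all 16577 genes were called. Of 19 calcium and touch genes, all tested, ACA13 (AT3G22910), a calcium pump, was the one called: 2.97, 6.81 and 3.4 FPKM against 1.62, 2.16 and 1.77, without overlap (0.86 ± 0.17, limma, adjusted p = 0.0202, kept in 3 of the 6 refits). The list had 11 positive and 8 negative members and a median of 0.03, which turned to -0.02 after quantile normalization and -0.04 after median-of-ratios scaling. The calmodulin-like touch gene TCH2 stood at 99.9, 60.5 and 67.4 FPKM against 153, 95.4 and 99.3 (-0.60, limma, adjusted p = 0.0961), with overlapping groups, and stood at -0.62 under mock too.

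Of 18 tested genes of reactive oxygen production and response, 12 were positive, with a median of 0.10. AOX1A (AT3G22370), the alternative oxidase of mitochondria, was called lower at 85.6, 46 and 81 FPKM against 109, 76.8 and 119 (-0.54 ± 0.11, limma, adjusted p = 0.0269, kept in 2 of the 6 refits), with overlapping groups. Of 12 tested ethylene genes 11 were positive, with a median of 0.16 (0.13 after quantile normalization, 0.09 after median-of-ratios scaling), and ACS7 was the one called. Jasmonate lists held no called gene (limma): the 14 synthesis genes had a median of 0.10 with 1 unadjusted p under 0.05, and the 16 response genes a median of 0.03 with 0. By number the jasmonate response list ran 0.33, -0.28 and 0.04, and its median turned to -0.04 after quantile normalization and -0.03 after median-of-ratios scaling.

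The remaining clade 3 channels and the ATP receptors gave no call. GLR3.7 stood at 0.26 (limma, adjusted p = 0.366), GLR3.4 at 0.17 (limma, adjusted p = 0.558) and GLR3.5 at -0.18 (limma, adjusted p = 0.586), while GLR3.1 and GLR3.2 were under the filter. The ATP receptor genes P2K1 (0.15) and P2K2 (-0.21) and the ATP-hydrolysing apyrases APY1 (0.12) and APY2 (-0.10) had 0 calls by limma and 0 unadjusted p under 0.05.

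Among the lists of leaf function, photosynthesis genes were slightly negative: 15 of 18 tested, with a median of -0.09, which was 0.01 after quantile normalization and -0.17 after median-of-ratios scaling. None passed (limma; 4 had an unadjusted p under 0.05). RCA, the activase of Rubisco, stood at 3366, 3023 and 3199 FPKM against 4054, 3656 and 3711, without overlap (-0.25 ± 0.06, limma, adjusted p = 0.0592). The 14 clock genes had a median of -0.01, spread by number over -0.29, -0.17 and 0.24, and -0.21 without Col-0 eATP 3; none passed (limma; 1 unadjusted p under 0.05). The 15 genes of glutamate and nitrogen metabolism had a median of 0.17 and no call (limma, 2 unadjusted p under 0.05). By number their median was -0.11, 0.04 and 0.06, each below 0.17, and it was 0.09 without Col-0 eATP 3.

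Of 9 growth, auxin and cell wall genes the expansin EXPA8 (AT2G40610), which loosens cell walls, was called higher at 5.99, 5.99 and 6.15 FPKM against 3.52, 2.3 and 2.58, without overlap (0.90 ± 0.21, limma, adjusted p = 0.0469, kept in 1 of the 6 refits). IAA29, an auxin-induced repressor, stood at 11.5, 19.9 and 16.9 FPKM against 2.34, 8.51 and 11.7 (1.18 ± 0.29, limma, adjusted p = 0.0543), with overlapping groups.

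Markers of cell types within the leaf were read for the make-up of the samples. Of 8 tested vascular markers the transcription factor gene ATHB8 (AT4G32880) was called higher at 1.87, 3.71 and 3.65 FPKM against 1.74, 2.06 and 1.54 (0.52 ± 0.12, limma, adjusted p = 0.0463, kept in 2 of the 6 refits), with overlapping groups, and the list median was 0.04, or -0.07 after quantile normalization and -0.02 after median-of-ratios scaling. The 5 tested guard cell markers had a median of 0.13 and the 5 tested epidermis and trichome markers 0.15, with 0 calls by limma and 1 unadjusted p under 0.05 in each. PDF1 (AT2G42840, protodermal factor 1), an epidermal gene outside that list, was called higher by limma (2.03, kept in 2 of the 6 refits), with overlapping groups. With no block on the number PDF1 was not called (limma, adjusted p = 0.669). SAG13, the one tested senescence marker, stood at 35, 6.99 and 5.4 FPKM against 25.6, 4.44 and 4.11 (0.44, limma, adjusted p = 0.652), so that number 1 was high in both genotypes. Its part in the salicylate values, which were also highest in number 1, was not tested.

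The genotype difference was then read in libraries that share none with the eATP comparison, although they share its numbers and its pooled estimate of spread. Under mock 12 genes were called (limma, 0.0724%), 9 higher (0.0543%) and 3 lower (0.0181%), with 1154 at an unadjusted p under 0.05, and after L-Glu 14 (limma, 0.0845%), 10 higher (0.0603%) and 4 lower (0.0241%), with 826. Besides the 10 genes called in all 3 treatments, NUDT12 and SAUR21 were called after both eATP and L-Glu. GONST3 and AT2G34170 were called under mock and not after eATP, and ERF15 and AT4G17670 after L-Glu and not after eATP.

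Most genes called after eATP had the same sign in the other treatments. Of the 90 higher genes, 73 (81.1%) were positive under mock and 70 (77.8%) after L-Glu, where 51.9% and 44.1% of all tested genes were positive. Of the 45 lower genes, 44 (97.8%) were negative under mock and 42 (93.3%) after L-Glu, against 47.9% and 55.8% of all tested genes. Medians were smaller: 0.17 and 0.12 for the higher genes and -0.23 and -0.22 for the lower genes, beside 0.64 and -0.47 after eATP. The 135 genes were picked by their eATP difference, so a smaller size elsewhere carries no test.

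**Figure D5:**
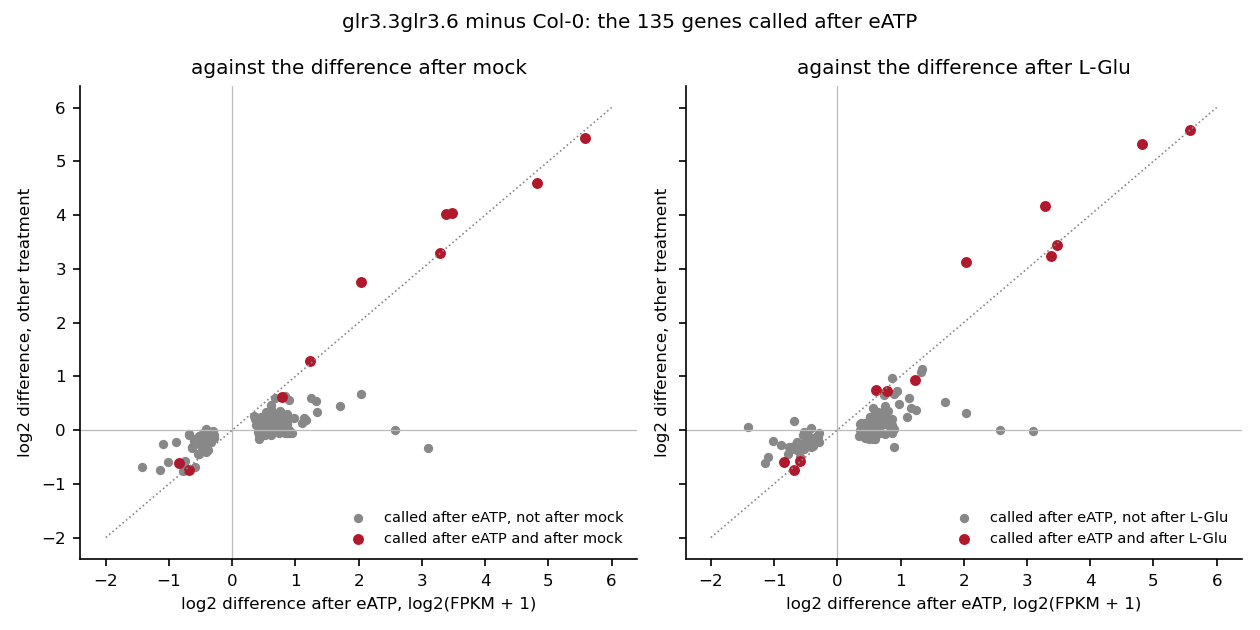
Difference between glr3.3glr3.6 and Col-0, log2(FPKM + 1), of the 135 genes called after eATP, with the eATP difference on the horizontal axis and the difference under mock (left) or after L-Glu (right) on the vertical axis; red points were called in both, and the dotted line marks equal differences. Most of the genes not called in the other treatment lie nearer to 0 on the vertical axis than on the horizontal one. Of those called in both, some lie above the dotted line in 1 panel or both. Among them are AT5G46295 (2.04 after eATP, 2.76 under mock, 3.13 after L-Glu) and MRD1 (3.48, 4.03 and 3.45).

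Whether the genotype difference itself changed with treatment was tested as an interaction over all 16577 genes. No gene passed for eATP against mock (limma, 0%; 1002 at an unadjusted p under 0.05; lowest adjusted p = 0.254) or for eATP against L-Glu (limma, 0%; 1104 at an unadjusted p under 0.05; lowest adjusted p = 0.543). For AT5G53830 the eATP difference exceeded the mock difference by 0.99 ± 0.22, for AT4G18253 by 0.97 ± 0.25, for ACS7 by 0.64 ± 0.30 and for AT3G16670 by 3.43 ± 0.88, with adjusted p of 0.728, 0.728, 0.824 and 0.728 by limma. For PYL5 it lay 0.42 lower (-0.42 ± 0.12) and for WRKY22 0.41 lower (-0.41 ± 0.13), both with an adjusted p of 0.797 by limma. The differences from Col-0 were therefore not shown to depend on the treatment.

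The line p2k1p2k2, named for the ATP receptors, was set beside glr3.3glr3.6 after the same treatment. It differed from Col-0 eATP in 1458 genes (limma, 8.8%; 1105 higher or 6.67%, 353 lower or 2.13%), and glr3.3glr3.6 eATP differed from p2k1p2k2 eATP in 160 (limma, 0.965%; 108 higher or 0.652%, 52 lower or 0.314%). After median-of-ratios scaling these splits were 233 higher and 612 lower, and 142 higher and 34 lower, and after quantile normalization 235 and 315, and 99 and 46. With no block on the number the counts were 4 and 10, beside 8 for glr3.3glr3.6 eATP against Col-0 eATP. With only the libraries compared and the block they were 0 and 3, beside 1. Both comparisons share libraries with the one described here, so values are given side by side only. Of the channel genes and their called neighbours, GLR3.6 stood at 0.15 in p2k1p2k2 (limma, adjusted p = 0.591) beside 5.58 in glr3.3glr3.6, and TMT3 at 0.08 (limma, adjusted p = 0.856) beside 4.82. GLR3.3 stood at 0.26 (limma, unadjusted p = 0.0354, adjusted p = 0.154) beside 0.78, and PMI1 at 0.33 (limma, unadjusted p = 0.0114, adjusted p = 0.0806) beside 1.23. MRD1, away from both loci, stood at -0.38 (limma, adjusted p = 0.373) beside 3.48.

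Other genes stood on the same side in both lines against the shared Col-0 libraries. SRC2 was at -0.68 in p2k1p2k2 (limma, adjusted p = 0.00113) beside -0.84, and AT5G46295 at 1.61 (limma, adjusted p = 0.00863) beside 2.04. PYL5 was at -0.37 (limma, adjusted p = 0.0151) beside -0.53, and AT5G10695 at -1.29 (limma, adjusted p = 0.00252) beside -1.14. AT3G22121 was at 1.73 (limma, adjusted p = 0.014) beside 1.71, and AT5G53830 at 0.69 (limma, adjusted p = 0.014) beside 1.17. NUDT12 was at -0.54 (limma, adjusted p = 0.00708) beside -0.59, and MIOX1 at -0.68 (limma, adjusted p = 0.0168) beside -0.68. AT3G29644, AT3G20340, AOX1A, WRKY22 and AT1G06830 passed in p2k1p2k2 as well, on the same side. Not all named genes did: AT4G18253 stood at 0.23 (limma, adjusted p = 0.45) beside 1.11. The ethylene synthesis gene ACS7 stood at 0.21 in p2k1p2k2 (limma, adjusted p = 0.572) beside 1.24, and directly between the lines it was higher in glr3.3glr3.6 by 1.03 ± 0.21 (limma, adjusted p = 0.0209). EDS1 stood at 0.28 (limma, adjusted p = 0.271) beside 0.84, and directly between the lines at 0.56 ± 0.16 (limma, adjusted p = 0.112), which did not pass. The salicylate list had a median of 0.16 beside 0.71. Directly between the lines that list had a median of 0.56 and 0 of its 13 tested genes called (limma; 8 had an unadjusted p under 0.05). Against the same Col-0 libraries the abscisate list stood at -0.26 in p2k1p2k2 beside -0.30. The heat shock list stood at -0.28 beside -0.29, and the early immune list at -0.04 beside 0.24. Directly between the lines 1 of the 18 tested abscisate genes and 3 of the 11 heat shock genes had an unadjusted p under 0.05 (limma). The low medians of the abscisate and heat shock lists were thus not particular to glr3.3glr3.6.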

How the data were processed

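RNA was sequenced from 27 pools of systemic leaves in 9 groups of 3, and values are the FPKM deposited by the authors, 32824 genes in 1 table. Per the submitters' processing notes, the build was TAIR10 and the tools were HISAT2 2.2.1, Cuffdiff 2.2.1, Cufflinks 2.2.1, SAMtools 1.19, Trim Galore 0.6.7 and FastQC 0.11.9; strand handling is not given in the sources used here, and depth is unknown. Libraries were grouped by their labels. The 16577 genes whose FPKM averaged 1 or more across libraries were analysed as log2(FPKM + 1), which understates changes of low genes, with limma 3.58.1 in R 4.3.3: 9 group means plus the replicate number as a block, moderated with a trend, Benjamini-Hochberg over all genes, called at an adjusted p under 0.05. Libraries of the same number deviated together (correlations of 0.453, 0.37 and 0.205 between both genotypes after eATP), so the numbers were taken as pairs; their meaning is not given in the labels. The procedure was tested on simulated data. The genes named were GLR3.3 and GLR3.6, the 2 genes on each side of them, up to the 15 highest and 15 lowest called genes whose groups did not overlap, and up to 4 members of each of 22 lists by p; others were chosen after their values were seen. The members and lists were chosen with earlier results of these data known. Gene names and overlaps come from RefSeq's table of another build, which matched 32539 identifiers, so no coordinates are given. Alternatives were other pseudocounts, filters, scalings, weights, blocks, sample sets and leaving out each library.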

Additional observations from a re-analysis of the deposited data

How the results depend on the processing

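After eATP the 135 calls became 214 under median-of-ratios scaling, 27 with the 18 libraries of Col-0 and glr3.3glr3.6 (chosen after seeing the data), and 1 or 3 with only the 6 libraries, with or without the replicate block. Without the replicate block 8 genes were called (7 higher, 1 lower; 1277 at an unadjusted p under 0.05), all among the 135. Leaving out libraries gave 6 to 395. The mock count of 12 became 5 and 6 with only its libraries, with and without the block, and 6 to 16 when libraries were left out. For L-Glu (14) it was 8 without the block, 23 with library weights, 4 and 6 with only its libraries, and 7 to 15. The interaction with mock gave 1 call without the filter and 0 to 3 when libraries were left out, that with L-Glu 0 to 2. Against p2k1p2k2 (160) it was 10 without the block, 390 with weights, 3 and 6 with only those libraries, and 16 to 106. For p2k1p2k2 against Col-0 (1458) it was 550 after quantile normalization, 845 after median-of-ratios scaling, 4 without the block, 0 and 0 with only those libraries, and 10 to 1907. The causes were not tested. For single named genes 1606 alternative values kept their status as called or not called, 328 lost the call and 24 gained it. Of values called in the reported or the alternative fit, 0 changed sign. Sign changes of genes called in neither fit were not counted apart and fall among the 1606. Depth is unknown, so what it limits could not be given.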

Other observations

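The following genes were picked from the 135 called after eATP once their values were seen, so they stand for no group; the growth, auxin and cell wall list had 1 call among 9 genes and a median of 0.09. AUX1, an auxin influx carrier, stood at 11.9, 22.8 and 14.5 FPKM in glr3.3glr3.6 against 7.41, 8.22 and 9.54 in Col-0 (0.84 ± 0.15, limma, adjusted p = 0.0152), without overlap and kept in 4 of the 6 refits. PIN3, an auxin efflux carrier, stood at 22.7, 32 and 30.7 FPKM against 12.3, 21.6 and 22.5 (0.60 ± 0.14, limma, adjusted p = 0.0482), without overlap across groups but kept in 0 of the 6 refits. TCP4, a transcription factor that limits cell division in leaves, stood at 7.18, 11 and 9.66 FPKM against 4.49, 5.61 and 5.05 (0.75 ± 0.14, limma, adjusted p = 0.018), without overlap and kept in 2. Against the same Col-0 libraries p2k1p2k2 stood at 0.67 for AUX1, 0.78 for PIN3 and 0.82 for TCP4.

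MYB51, a regulator of indole glucosinolate synthesis, stood at 244, 167 and 191 FPKM against 144, 101 and 112 (0.74 ± 0.14, limma, adjusted p = 0.0196, kept in 2 of the 6 refits), without overlap, beside 0.04 in p2k1p2k2. On the lower side RCAR1, an abscisate receptor like PYL5, stood at 22, 16.5 and 19 FPKM against 29.1, 20.6 and 28.2 (-0.41 ± 0.08, limma, adjusted p = 0.0191, kept in 4), with overlapping groups. ERD14, a dehydrin, stood at 1147, 811 and 1069 FPKM against 1576, 1115 and 1591 (-0.50 ± 0.10, limma, adjusted p = 0.03, kept in 1), also with overlapping groups. HPR, the peroxisomal hydroxypyruvate reductase of photorespiration, stood at 398, 326 and 371 FPKM against 484, 415 and 472 (-0.32 ± 0.07, limma, adjusted p = 0.03, kept in 1), without overlap.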
